A study of Danio rerio with 6 samples.

Results

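Adrenomedullin and apelin are the ligands of a pair of peptide hormone systems of blood vessels, and their receptor and ligand genes were followed here in the tails of zebrafish embryos without a heartbeat. The genes were chosen by name: calcrla, ramp2 and adma of the adrenomedullin system, and apln, aplnra and aplnrb of the apelin system. Rows carrying 5 of these 6 names were found among the 25745 genes of the table, and all 5 passed the filter on low values. No row is named adma, so that gene is not analysed here. The table holds a pair of entries called ADM (1 of 2) and ADM (2 of 2), whose values are given under those names.

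The samples were RNA of tail-derived cells from embryos of the AB strain at 28 hours after fertilisation, 3 libraries of wild type (WT) and 3 of sih mutants, whose hearts do not contract. sih is known as silent heart, and the mutated gene is tnnt2a, which encodes cardiac troponin T. No other allele, transgene or drug is named for either genotype. The labels give neither the number of tails in a library nor the way mutants were told from their siblings. The comparison asks how vessel hormone genes are expressed in a tail that has never had a blood flow driven by the heart.

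Adrenomedullin is a small peptide that relaxes vessels and tightens the endothelial barrier. Its receptor is a complex: Calcrl, a receptor of the calcitonin family, reaches the cell surface together with a receptor activity-modifying protein (Ramp), and the Ramp partner sets which peptide the complex prefers. With Ramp2 it binds adrenomedullin, and with Ramp1 it binds calcitonin gene-related peptide in mammals. The complex couples to the stimulatory G protein and so to adenylyl cyclase, which makes cyclic AMP. In zebrafish, calcrla is known from somites and developing arteries and is needed for arterial differentiation. Apelin is made by sprouting endothelial cells and other tissues and binds apelin receptors, which couple to inhibitory G proteins. Zebrafish has the receptor genes aplnra and aplnrb and a further early ligand, apela (also called Elabela or Toddler), through which these receptors guide mesendodermal and heart progenitor cells.

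The libraries held between 21240839 and 27222955 reads assigned to genes. Levels are normalised read counts, and 1 read was worth between 0.826 and 1.43 of them. tnnt2a, a heart gene, reached at most 9 reads in any library and had reads in WT replicates 2 and 3 and in sih replicate 3, too few to check the genotype labels in this tissue. Libraries that share a replicate number resembled each other across genotypes, so the test is given in 2 forms: an unblocked limma fit, which compares the 3 sih with the 3 WT libraries, and a paired limma fit, in which each replicate number is a block. Each gives the same log2 change of sih against WT on the scale of log2(value + 1), with an adjusted p by Benjamini-Hochberg over all 22813 genes tested and a threshold of 0.05. Nothing in the labels says that the libraries came from separate clutches, so the spread behind the p-values may be technical. In the unblocked fit this is the spread between libraries of a genotype, and in the paired fit that between the 3 within-pair differences. The unblocked fit called 0 genes (0% of those tested), with 235 genes at an unadjusted p under 0.05. The paired fit called 4.84% of genes, 2.77% higher and 2.07% lower in sih. It has 2 residual degrees of freedom, beside a median total of 18.75 after limma's moderation. Most of the variance behind its SE and p therefore comes from other genes of like level, not from a gene's own 3 pairs.

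calcrla, the receptor subunit of the adrenomedullin system, fell in sih tails in the paired fit. It was the only one of the 5 genes to pass, beside 4.84% called over all genes tested. ramp2, which encodes its partner, was a little lower in all 3 pairs, aplnrb was higher in all 3, and apln and aplnra went different ways in different pairs. None of these last 4 passed. Going the same way in all 3 pairs is common: 38.4% of the genes tested did so. In the unblocked fit none of the 5 genes passed, and the smallest of their unadjusted p was 0.112, for calcrla (limma).

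**Figure D1:**
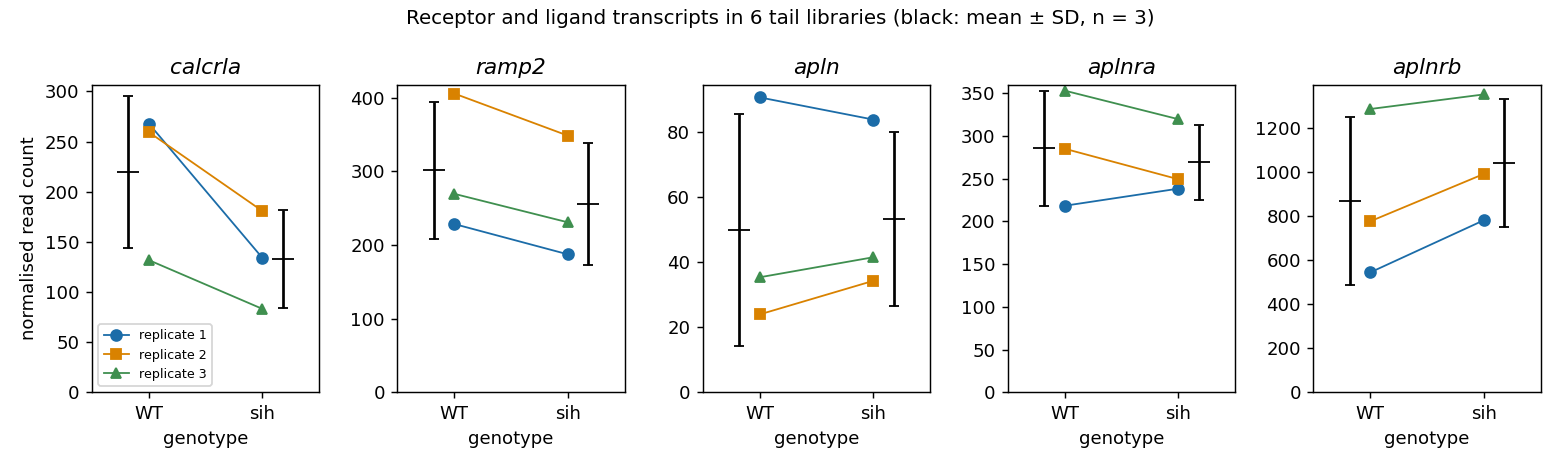
Normalised read counts (vertical axes, starting at 0, a scale per gene) of calcrla, ramp2, apln, aplnra and aplnrb in WT and sih tails; each line joins the WT and the sih library of a replicate number, and black bars are the mean ± SD of 3 libraries. The lines of calcrla, from 268, 259 and 132 in WT to 134, 181 and 83.1 in sih, all slope down, while apln and aplnra each have lines that rise and lines that fall.

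calcrla (ENSDARG00000011473) was at 268, 259 and 132 normalised counts in WT replicates 1, 2 and 3. In sih replicates 1, 2 and 3 it was at 134, 181 and 83.1. Each sih library lay below the WT library of its number, but the genotypes overlapped, because WT replicate 3 was lower than sih replicates 1 and 2. The sih level was 0.50, 0.70 and 0.63 of the WT level in pairs 1, 2 and 3. The means were 220 ± 76.2 in WT and 133 ± 48.8 in sih (SD, n = 3 each). The change was -0.72 ± 0.15 (SE, adjusted p = 0.00904, paired limma fit), with a 95% interval from -1.04 to -0.41. It was the 317th smallest p of all genes in that fit. In the unblocked limma fit the same change had an SE of 0.41 and an interval from -1.66 to 0.21. With pair 1, 2 or 3 left out the change was -0.59, -0.83 and -0.76. A fit on 2 pairs has 1 residual degree of freedom and takes nearly all of a gene's variance from genes of like level, so its adjusted p (from 0.00245 to 0.0390 in limma here) can be smaller than with all pairs and is no measure of stability. Between 58 and 314 reads stood behind each value, a counting error of 13.1% to 5.64%. The 3 genes whose levels followed calcrla most closely over the 6 libraries, out of 13247 genes with a mean of at least 50, were pold3, kcnk1a and DNMBP (Pearson r from 0.992 to 0.997). With so many genes and 6 libraries that differ mostly by replicate number, such values describe likeness and no more.

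ramp2 (ENSDARG00000037895), the gene of the partner that makes Calcrl an adrenomedullin receptor, was at 228, 405 and 269 normalised counts in WT replicates 1, 2 and 3 and at 187, 348 and 231 in the sih replicates. Replicate 2 was the highest pair and replicate 1 the lowest, and the genotypes overlapped. The sih level was 0.82, 0.86 and 0.86 of WT in the 3 pairs, a narrow range. The change was -0.24 ± 0.12, with a 95% interval from -0.50 to 0.01 (adjusted p = 0.297, paired limma fit). A fall of up to 0.50 on the log2 scale is therefore within the interval. With scaling by library totals, which shifts the median of all genes by -0.18, the change of ramp2 was -0.43 and passed (adjusted p = 0.0397, paired limma fit). Its closest genes over the 6 libraries were mlst8, C22H19orf10 (1 of 2) and zgc:171566 (r from 0.996 to 0.997).

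The ratio of the receptor gene to its partner gene was compared within each library, which removes any scaling. The log2 ratio of calcrla to ramp2 was lower in the sih library of every pair, by -0.71, -0.30 and -0.44. Over libraries the difference was -0.48, from -0.48 ± 0.64 in WT to -0.96 ± 0.49 in sih (SD, n = 3 each; exact permutation test, two-sided, p = 0.5, adjusted p = 0.875 over the 7 ratios tested). With 3 libraries against 3 this test cannot go below 0.1, so it could not have passed whatever the values. The mean of the 3 within-pair differences was -0.48 ± 0.21 (SD, 3 pairs). These ratios describe unequal levels within libraries, not levels per molecule, since no transcript lengths were used.

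A further entry named RAMP2 (1 of 2) (ENSDARG00000087020) moved in the same direction. It was at 248, 270 and 169 normalised counts in WT replicates 1, 2 and 3 and at 209, 204 and 115 in the sih replicates, lower in each pair, with overlapping genotypes. Its change was -0.40 ± 0.14 (adjusted p = 0.102, paired limma fit), which did not pass. The current name table gives this identifier the name si:ch73-334d15.2, so whether it encodes a Ramp is uncertain here. This entry, and the others that follow by name only, were taken up after their values had been seen.

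Ligand entries of the adrenomedullin system showed no common direction. ADM (1 of 2) (ENSDARG00000015263) was at 113, 103 and 64.9 normalised counts in WT replicates 1, 2 and 3 and at 95.3, 138 and 73.1 in the sih replicates. It was lower in pair 1 and higher in pairs 2 and 3, with a change of 0.11 ± 0.19 (adjusted p = 0.796, paired limma fit) and a 95% interval from -0.27 to 0.50. ADM (2 of 2) (ENSDARG00000069027) had 7 to 31 reads a library and a change of -0.14 ± 0.35 (adjusted p = 0.880, paired limma fit). Its 95% interval, from -0.86 to 0.59, is wide at this depth. Which of these entries is adma cannot be read from the names.

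**Figure D2:**
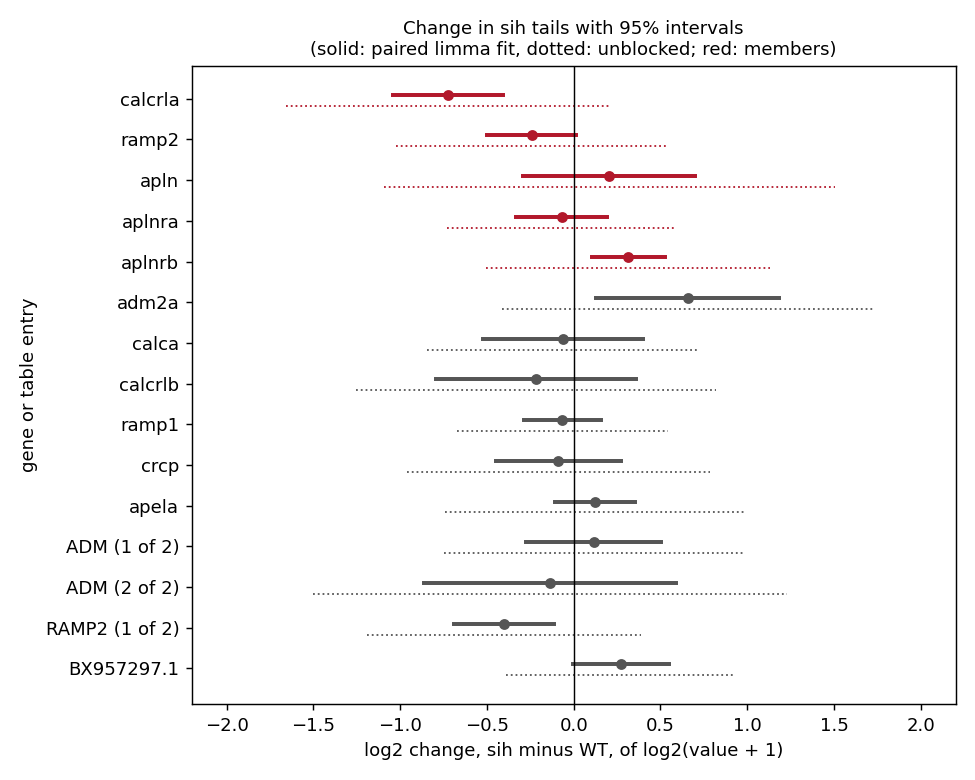
Log2 change of sih against WT on the log2(value + 1) scale (horizontal axis) for the 5 genes (red) and for related genes and entries (grey); points are the change, solid bars the 95% interval of the paired limma fit and dotted bars that of the unblocked fit. The solid bar of calcrla, from -1.04 to -0.41, lies furthest below 0, and every dotted bar crosses 0. calcr, adm2b and BX255919.1, which are at 0 in some libraries, are not drawn.

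In the rest of the calcitonin family, 7 of 11 listed genes were found and tested. In the paired limma fit 0 rose and 0 fell, beside 4.84% called over all genes tested. The median change was -0.06, beside -0.0042 over all genes. adm2a, which encodes the adrenomedullin-related peptide intermedin, had the smallest p: it was at 70.6, 34.7 and 29.5 normalised counts in WT replicates 1, 2 and 3 and at 73.7, 91.7 and 43.0 in the sih replicates. It was higher in sih in every pair, by 1.04, 2.64 and 1.46 times, and the pairs were far apart in size. Its change was 0.66 ± 0.25 (adjusted p = 0.152, paired limma fit), which did not pass. ramp1, another Ramp gene, was at 411, 453 and 548 in WT and 364, 447 and 547 in sih, a change of -0.07 ± 0.11 (adjusted p = 0.800, paired limma fit) with a narrow 95% interval from -0.29 to 0.16. calcrlb, the paralog of calcrla, was at 49.5, 25.6 and 31.4 in WT and 42.0, 29.6 and 20.1 in sih, a change of -0.22 ± 0.28 (adjusted p = 0.729, paired limma fit). At 14 to 54 reads a library its interval, from -0.79 to 0.36, includes the change of calcrla. calcr and adm2b had at most 4 and 2 reads in any library.

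The apelin ligand gene apln (ENSDARG00000053279) was at 90.8, 23.9 and 35.4 normalised counts in WT replicates 1, 2 and 3. In the sih replicates it was at 83.9, 34.3 and 41.5. Both libraries of replicate 1 stood well above the other 4, and the genotypes overlapped completely. The sih level was 0.92, 1.43 and 1.17 of WT in pairs 1, 2 and 3, with 29 to 99 reads behind each value and so a counting error of up to 18.6%. The change was 0.20 ± 0.24 (adjusted p = 0.700, paired limma fit), with a 95% interval from -0.29 to 0.70. It turned negative in the unblocked limma fit without WT replicate 2 (-0.20) and without sih replicate 1 (-0.17). The genes that followed it most closely were vps41, st6gal2 and appl2 (r from 0.9976 to 0.9999), all over libraries in which replicate 1 stands apart.

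aplnrb (ENSDARG00000036670), an apelin receptor needed for heart progenitors in zebrafish, was at 545, 777 and 1287 normalised counts in WT replicates 1, 2 and 3 and at 782, 992 and 1354 in the sih replicates. It was higher in sih in every pair, by 1.44, 1.28 and 1.05 times, most in the pair with the lowest level and least in the pair with the highest. The spread between replicate numbers was wider than the difference between genotypes, so the genotypes overlapped. The change was 0.32 ± 0.10, with a 95% interval from 0.11 to 0.52 before adjustment (adjusted p = 0.0786, paired limma fit), which did not pass. edgeR's quasi-likelihood test with the replicate block on the recovered reads passed it (0.31, adjusted p = 0.0334). With scaling by library totals the change was 0.13 (adjusted p = 0.462, paired limma fit), beside a median gene at -0.18. Its closest genes were zgc:153924, NCOA5 and cdr2l (r from 0.995 to 0.999).

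The row named aplnra (ENSDARG00000078356) was at 218, 285 and 353 normalised counts in WT replicates 1, 2 and 3 and at 238, 249 and 319 in the sih replicates. It was higher in sih in pair 1 and lower in pairs 2 and 3, at 1.09, 0.87 and 0.91 of WT. The change was -0.07 ± 0.13 (adjusted p = 0.819, paired limma fit), with a 95% interval from -0.33 to 0.19. In the unblocked limma fit it turned positive without WT replicate 3 (0.10) and without sih replicate 1 (0.01). dbr1, zgc:162232 and rasd1 followed it most closely (r from 0.980 to 0.990). Between aplnra and aplnrb the log2 ratio was lower in the sih library of every pair, by -0.39, -0.54 and -0.22. Over libraries it went from -1.54 ± 0.29 in WT to -1.93 ± 0.19 in sih (SD, n = 3 each; exact permutation test, two-sided, p = 0.2, adjusted p = 0.7 over the 7 ratios, a test that cannot go below 0.1). The mean of the 3 within-pair differences was -0.38 ± 0.16 (SD, 3 pairs).

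The identity of the aplnra row is uncertain. The current name table gives the symbol aplnra to another identifier, ENSDARG00000002172, listed here as BX255919.1, and does not hold the identifier of the row named aplnra. BX255919.1 was at 20.2, 34.7 and 0 normalised counts in WT replicates 1, 2 and 3 and at 21.6, 33.3 and 0 in the sih replicates, so replicate 3 was at 0 in both genotypes. It followed the replicate number and not the genotype, with a change of 0.01 ± 0.41 (adjusted p = 0.992, paired limma fit). Another entry, BX957297.1 (ENSDARG00000004447), which the current table calls APLNR, was at 235, 191 and 302 in WT and 246, 284 and 340 in sih, higher in every pair. Its change was 0.27 ± 0.13 (adjusted p = 0.281, paired limma fit). How alike these entries are in sequence was not examined. Reads of genes alike in sequence may be misassigned or lost, so the separate levels of these entries are uncertain.

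The level of all 5 genes differed between replicate numbers. In the paired limma fit the F test of the number passed for each of the 5 (adjusted p from 3.98e-06 for aplnrb to 0.0134 for aplnra), beside 59.1% of all genes tested. The patterns differed from gene to gene. apln had its highest pair mean in replicate 1, at 87.4 normalised counts against 29.1 and 38.5 in replicates 2 and 3. ramp2 was highest in replicate 2 (377 against 208 and 250.0), and aplnrb in replicate 3 (1321 against 663 and 885). calcrla was lowest in replicate 3, at 107 against 201 and 219.9. As a description over the 6 libraries, which share these numbers, calcrla and aplnrb ran opposite ways (r = -0.81), as did ramp2 and apln (r = -0.86), while aplnra and aplnrb ran together (r = 0.86).

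Since calcrla and the apelin receptors are expressed in vessels, their levels were also set against endothelial markers. In bulk tails, fewer cells of a type and less RNA per cell cannot be told apart. Of 24 pan-endothelial rows tested, 2 rose and 0 fell in the paired limma fit, with a median change of 0.06. That fit called 4.84% of all genes tested. Those that rose were cldn5b, a junction gene, and tal1, a transcription factor gene that blood cells also express. The call of cldn5b was lost without pair 3 (adjusted p = 0.0519), with a pseudocount of 0.1 (adjusted p = 0.0533) and with scaling by library totals (0.25, adjusted p = 0.117), all in the paired limma fit. By sign alone 14 of the 24 were higher and 10 lower. Well-known markers went both ways. They were chosen for mention after their values were seen, and none of them passed. kdrl, a Vegf receptor gene, was at 729.9, 585 and 512 normalised counts in WT replicates 1, 2 and 3 and at 631, 543 and 354 in the sih replicates, lower in every pair (-0.28 ± 0.11, adjusted p = 0.153, paired limma fit). sox18, a transcription factor gene, was at 230.1, 316 and 306 in WT and 343, 369 and 389.7 in sih, higher in every pair without overlap of the genotypes (0.38 ± 0.12, adjusted p = 0.0763, paired limma fit). The angiopoietin receptor gene tek (0.33 ± 0.12, adjusted p = 0.133) and egfl7 (0.31 ± 0.13, adjusted p = 0.191), which encodes a secreted endothelial protein, also lay above 0. The listed genes she (-0.41 ± 0.12, adjusted p = 0.0649) and ecscr (-0.72 ± 0.33, adjusted p = 0.243, paired limma fit) were lower in every pair. ecscr, at 11 to 53 reads a library, had no overlap of the genotypes either. Of all genes tested, 4.22% had no overlap, in one or the other direction. plvapa was the 1 marker at 0 in some libraries. The summed level of the list was 7613 to 9150 normalised counts in WT and 8177 to 9979 in sih, higher in sih in each pair. This sum includes tal1, at 273, 274 and 264 in WT replicates 1, 2 and 3 and at 867, 650 and 560 in the sih replicates. Relative to the geometric mean of the 19 markers with a mean of at least 50, calcrla was lower by -1.11, -0.61 and -0.75 in pairs 1, 2 and 3, beside -0.99, -0.52 and -0.66 for calcrla itself. The marker mean was 0.11, 0.10 and 0.09 higher in the sih library of the 3 pairs, and without tal1 it was 0.03, 0.03 and 0.04 higher. With tal1 left out, calcrla was lower by -1.02, -0.55 and -0.70 relative to the markers. Over libraries the difference was -0.82 (WT -0.68 ± 0.48, sih -1.51 ± 0.53, SD, n = 3 each; exact permutation test, two-sided, p = 0.2, adjusted p = 0.7 over the 7 ratios). ramp2 was lower by -0.40, -0.31 and -0.31 on this scale. aplnrb was higher by 0.41 and 0.26 in pairs 1 and 2 and lower by -0.02 in pair 3, where it was 0.04 higher without tal1. The exact permutation p was between 0.5 and 0.9 for ramp2, apln, aplnra and aplnrb.

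**Figure D3:**
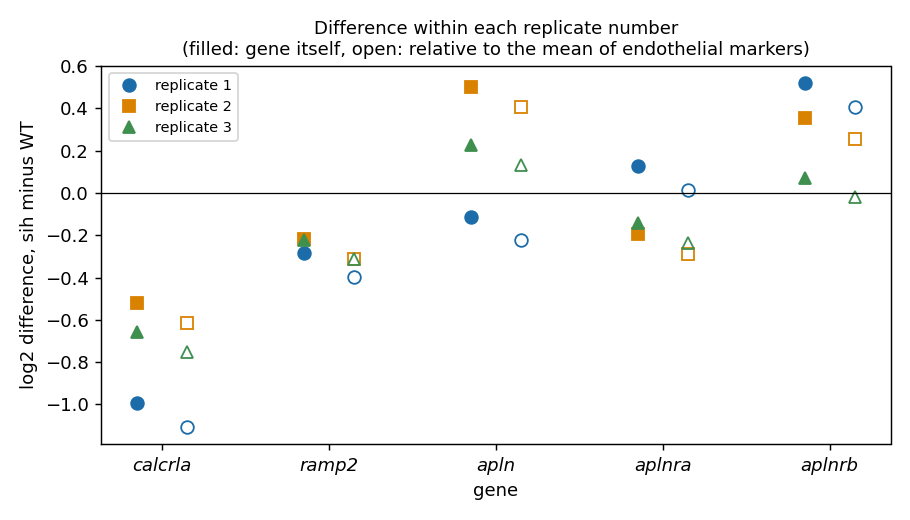
Log2 difference of sih minus WT (vertical axis) within each replicate number for the 5 genes; filled symbols are the gene itself and open symbols the gene relative to the mean of 19 endothelial markers. All 6 symbols of calcrla lie between -1.11 and -0.52, and those of ramp2 between -0.40 and -0.22.

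Some markers of other cells differed between the genotypes as well. Over all genes tested, the paired limma fit called 4.84%, with 2.77% higher and 2.07% lower in sih. All 12 rows of the erythroid list rose in the paired limma fit, with summed levels of 33114 to 47449 normalised counts in WT and 154333 to 207493 in sih. In the leukocyte list 4 of 10 fell, with sums of 1402 to 1931 in WT and 739 to 761 in sih. In the list of skeletal muscle and somite genes, tissues in which calcrla is also known, 3 of 14 rose and 0 fell, with a median change of 0.14 and sums of 1247660 to 2027400 in WT and 1505400 to 2656990 in sih. In the epidermis list 3 of 9 rose and 1 fell. In the notochord list 0 of 8 rose and 1 fell, and in the neural list none of 10 passed. The notochord and neural lists are too short for such counts to be told from the share over all genes. No marker of these 6 lists was at 0 in any library. Their part in the changes of the 5 genes was not tested. Counts in the calcitonin family and pan-endothelial lists above likewise cannot be told from the share over all genes. The same holds for the ligand, receptor signalling, venous and lymphatic, and tip cell lists below.

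Among genes listed as making, trimming or removing the ligands, 8 were tested. In the paired limma fit 1 rose and 0 fell, beside 4.84% called over all genes tested, with a median change of 0.08. The gene that rose was pcsk7, a proprotein convertase, at 425, 471 and 800.0 normalised counts in WT replicates 1, 2 and 3 and at 501, 661 and 1163 in the sih replicates (0.42 ± 0.10, adjusted p = 0.0219). It was higher in every pair with overlapping genotypes. The call was lost without pair 2 (adjusted p = 0.0558) and without pair 3 (adjusted p = 0.193), with a pseudocount of 0.1 (adjusted p = 0.0583) and with scaling by library totals (adjusted p = 0.164), all in the paired limma fit. Whether the product of pcsk7 acts on these ligands was not tested. The furin genes of the list, also convertase genes, did not pass in the paired limma fit. furina was lower in every pair (-0.16 ± 0.09, adjusted p = 0.328), and furinb was at 0.04 ± 0.13 (adjusted p = 0.919). prcp, with the next smallest p of the list, was lower in sih in every pair, at 0.70, 0.94 and 0.81 of WT. Its change was -0.30 ± 0.11 (adjusted p = 0.110, paired limma fit), which did not pass. apela, the early ligand of the apelin receptors, was at 265, 535 and 475 in WT and 294, 635 and 467 in sih (0.12 ± 0.11, adjusted p = 0.600, paired limma fit). ackr3b, whose mammalian counterpart scavenges adrenomedullin as well as chemokines, was at 0.03 ± 0.08, with a 95% interval from -0.15 to 0.20 in the paired limma fit. The amidating enzyme gene pam, which finishes adrenomedullin in mammals, was at 0.17 ± 0.10 (adjusted p = 0.361, paired limma fit).

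Downstream of the receptors, 1 of 30 tested genes rose and 0 fell in the paired limma fit, beside 4.84% called over all genes tested. The median change was 0.02. The gene that rose was adcy6a, an adenylyl cyclase, the kind of enzyme that stimulatory G protein receptors switch on and inhibitory ones hold back. adcy6a was at 207, 111 and 193 normalised counts in WT replicates 1, 2 and 3 and at 509, 235 and 362 in the sih replicates. Every sih library lay above every WT library, as it did, in one or the other direction, for 4.22% of all genes tested. The level in sih was 2.46, 2.11 and 1.88 times that of WT in the 3 pairs. The change was 1.09 ± 0.13 (adjusted p = 4.18e-05, paired limma fit), and it lay between 0.99 and 1.18 with any 1 pair left out. Its paralog adcy6b was at 152, 34.7 and 48.2 in WT and 132, 40.8 and 75.9 in sih, with no common direction. Genes of G protein subunits, arrestins and receptor kinases did not pass.

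**Figure D4:**
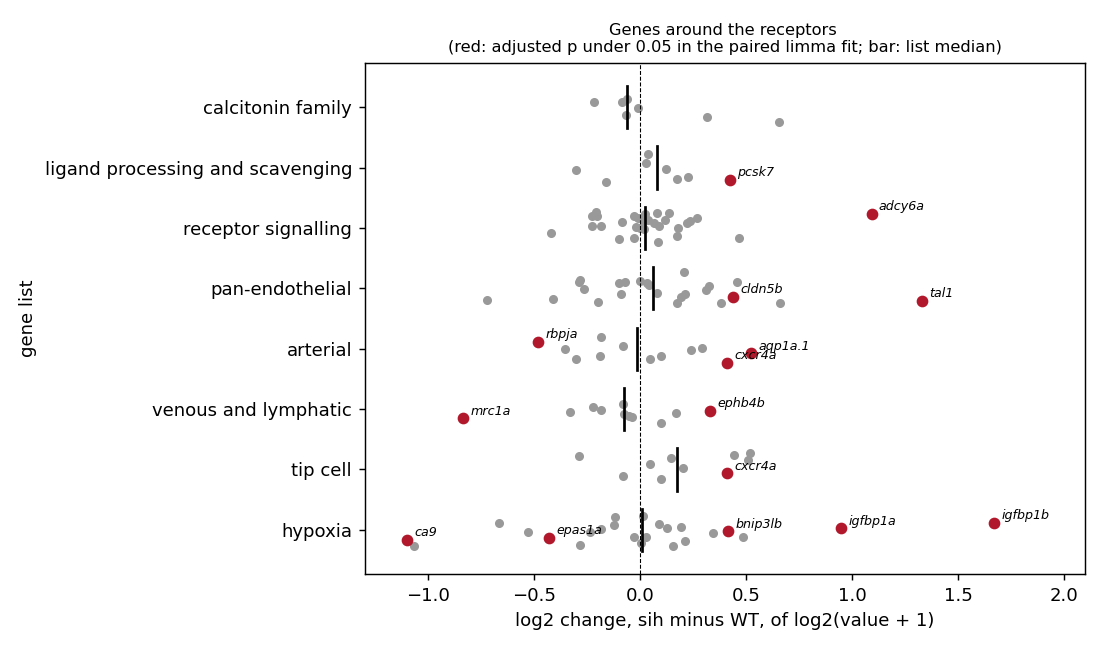
Log2 change of sih against WT (horizontal axis, log2(value + 1) scale) for the genes of 8 lists around the receptors (rows, points spread vertically for legibility); red points passed an adjusted p under 0.05 in the paired limma fit, grey points did not, and black bars are list medians. adcy6a, at 1.09, stands apart from the other receptor signalling genes, and the medians of the calcitonin family (-0.06) and receptor signalling (0.02) lists lie near 0.

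Vessel subtypes and the response to low oxygen, which is known to raise adrenomedullin and apelin in mammals, are given for comparison. The counts stand beside 4.84% called over all genes tested in the paired limma fit. Of 12 arterial genes, cxcr4a (0.41 ± 0.10) and aqp1a.1 (0.52 ± 0.08) rose and rbpja fell (-0.48 ± 0.12) in the paired limma fit. Of 11 venous and lymphatic genes, ephb4b rose (0.33 ± 0.09) and mrc1a fell (-0.84 ± 0.15). Of 10 tip cell genes, the class of sprouting cells that make apelin, cxcr4a was the 1 that rose, and the median was 0.17. Of 24 hypoxia genes 3 rose and 2 fell, with a median of 0.01. Those that rose were igfbp1b (1.67 ± 0.24), igfbp1a (0.95 ± 0.14) and bnip3lb (0.42 ± 0.11). Those that fell were ca9 (-1.10 ± 0.28) and epas1a (-0.43 ± 0.09). The calls of igfbp1a, bnip3lb and epas1a were not followed under the further settings given below. Which cells of the tail lie behind the calls of these lists was not tested. In the same fit all 12 erythroid rows rose. Summed levels of the hypoxia list were 13702 to 19842 normalised counts in WT and 13483 to 19469 in sih. In the paired limma fit the calls of cxcr4a, rbpja and ephb4b were lost without pair 3 (adjusted p = 0.246, 0.319 and 0.309), that of ephb4b also without pair 2 (adjusted p = 0.0800), and that of ca9 without pair 2 (adjusted p = 0.194). With a pseudocount of 0.1 those of cxcr4a, rbpja, ephb4b and ca9 were lost (adjusted p = 0.0574, 0.0768, 0.0743 and 0.0833). With scaling by library totals cxcr4a was at 0.22 and ephb4b at 0.15 (adjusted p = 0.143 and 0.325, paired limma fit), beside a median gene at -0.18.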

How the data were processed

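Per the labels' protocols, RNA was extracted with TRIzol, poly(A) RNA was selected, fragmented and copied with random primers, and Illumina libraries were amplified by PCR. The submitters' processing notes list TopHat, edgeR 3.0.8, HTSeq 0.5.3p5 and the genome build Zv9 without saying what each was used for. Not given in the sources used here are the annotation, the strand setting and the scaling method, so reads of overlapping or near-identical genes may be misassigned. The deposited values are a signal scale, gene counts that the authors divided by 1 factor per library: in each library 100% of the non-zero values were, within a tolerance of 1e-06, a whole number times the smallest one, which gave whole reads back. Counting errors are 1 over the square root of the reads and cover counting only.

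limma 3.58.1 (R 4.3.3) was run two-sided on log2(value + 1) with its mean-variance trend and Benjamini-Hochberg adjustment, over genes whose WT or sih mean reached 1. The main fit has no block. Deviations from the genotype means (13248 genes with a mean of at least 50) correlated between same-numbered libraries at 0.932, 0.884 and 0.852, above the bound of 0.1. Between differently numbered libraries they correlated at -0.730 to 0.136. Of these, WT2 with sih3 (0.101) and WT3 with sih2 (0.136) also lay above the bound. The numbers pair the libraries by the gap between these values, and the paired fit is given beside the main one. The labels give no meaning for a number, so the pairing rests on these values. edgeR 4.0.16 and DESeq2 1.42.0 were run on the recovered whole reads as alternatives, beside other scalings, pseudocounts, filters and left-out libraries. limma, edgeR and DESeq2, each with and without the block, were tested on simulated data. The other scalings, pseudocounts, filters and left-out libraries were not.

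Members and gene lists were chosen with earlier results of these data known. Lists were matched by the table's name, then by current symbol (found for 74.6% of identifiers), then by older names. Named genes are the members and, for each, the 3 genes of closest pattern. Of the lists around the receptors, called genes are named, or else those with the smallest p. Marker lists of other cells are given as counts, without gene names. A few other genes, such as calcrlb, ramp1, apela, ackr3b, pam, prcp, furina, furinb and adcy6b, were named after their values were seen. No coordinates or sequences are given, as no annotation of Zv9 was used here.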

Additional observations from a re-analysis of the deposited data

How the results depend on the processing

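The number of genes called in all, 0 in the unblocked limma fit, was also 0 with edgeR's quasi-likelihood test, with scaling by library totals and without any 1 library, and 48 with DESeq2. With the replicate block it was 1105 with limma, 1799 with edgeR, 986 with DESeq2, 2238 with library totals (181 higher and 2057 lower), 1106 with TMM, 410 with a pseudocount of 0.1, 1153 with 5, 912 with no filter and 1436 with a filter of 1 CPM in 3 libraries. Leaving out pair 1, 2 or 3 gave 1248, 1482 and 506. Of the listed genes, 0 were called in the unblocked fit and 14 with DESeq2. In the same order of settings with the replicate block, the counts were 38, 50, 35, 44, 38, 26, 38, 34 and 44. Leaving out pair 1, 2 or 3 gave 42, 41 and 29. These totals cover the marker lists of other cells too. The 38 with limma, beside 4.84% called over all genes tested, include 12 erythroid and 4 leukocyte rows. They do not describe the genes around the receptors alone.

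calcrla was lower under every alternative that gave it an adjusted p. With the replicate block it passed at -0.72 with limma, -0.73 with edgeR, -0.91 with library totals and -0.72 with TMM. It also passed at -0.73 and -0.71 with pseudocounts of 0.1 and 5, -0.72 with no filter and -0.72 with the CPM filter. The adjusted p of calcrla over these limma and edgeR fits was from 0.000135 to 0.0375. DESeq2 with the block gave it no adjusted p, and none of the unblocked fits passed it. Leaving out 1 library gave -1.06 to -0.43, and leaving out pair 1, 2 or 3 in the paired fit -0.59, -0.83 and -0.76. ramp2 passed only with library totals and the block (-0.43), and aplnrb only with edgeR and the block (0.31). Leaving out libraries or pairs moved ramp2 between -0.49 and -0.0064, apln between -0.20 and 0.74, aplnra between -0.25 and 0.10 and aplnrb between 0.02 and 0.64. ephb4b turned to -0.022 in the unblocked fit without sih replicate 3. apln relative to endothelial markers was 0.10 with all libraries, between -0.045 (without replicate 2) and 0.27 (without replicate 1). Markers chosen at a mean of 10, or without tal1 (added after seeing the data), turned no difference over libraries. Within pairs, aplnrb relative to the markers went from -0.02 to 0.04 in pair 3 without tal1. The cause of these moves was not tested. Few reads limit calcr and adm2b (at most 4 and 2 in a library), and counting error reaches 18.6% for apln.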
